A study of Mus musculus with 19 samples.

Results

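DNA replication and G1/S genes, 43 protein-coding genes of the 39179 gene identifiers in the count table, were described in 10 mouse liver tumours. The genes were listed by name for their part in copying DNA or in the step from G1 to S phase, and each symbol was found once in the table by its Ensembl identifier. The rule itself uses no measured value, though the list was drawn up with earlier results of these data known. The series holds 13 tumours, 3 control livers and 3 high AAV control livers, and the 10 tumours numbered 04 to 13 were those whose columns could be matched to a title by number, on the assumption that the number in a title is the library number. The other tumours and both kinds of control liver were not analysed here, so no level below is set against non-tumour liver, and there is no treatment contrast. All 10 tumours came from male mice that carried Ctnnb1tm1Mmt (HET), an allele that yields a stabilised β-catenin after recombination, and Gt(ROSA)26Sortm1(MYC)Djmy (HOM), a human MYC transgene that Cre switches on. The mice received AAV8.TBG.PI.Cre.rBG, a virus whose TBG promoter limits Cre to hepatocytes, at 640000000 genome copies per mouse. According to the study's methods the mice were of mixed background and whole tumours were taken, so stromal and immune cells were sequenced with the tumour cells. The age of the mice was not given in the labels. The question put to these samples was how far tumours with the same engineered alleles differ from each other.

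DNA is copied once per division in steps that have their own genes. The origin recognition complex, Cdc6 and Cdt1 load the ring-shaped MCM helicase on DNA in G1 (licensing), and Mcm10, Cdc45 and the GINS complex turn it on in S phase. Primase and DNA polymerase α then lay down primers, the RFC complex loads the sliding clamp PCNA, and polymerases δ and ε extend the strands. E2F transcription factors and cyclin E with its kinase drive the entry to S phase, and many replication genes are known targets of E2F. In healthy adult liver few hepatocytes divide, and the replication genes are known as markers of dividing cells in tumours. In bulk RNA, more dividing cells and more RNA per dividing cell cannot be told apart.

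Between 11687034 reads (tumour 07) and 36964427 reads (tumour 13) were assigned to genes, with 30630409 in tumour 12. Levels are given as CPM, counts of a gene per 1000000 gene counts after scaling between libraries, and 3 counts correspond to 0.0812 to 0.257 CPM. This floor covers counting error only. The tumour columns carry tags of 3 families, RMH4 (tumours 04 to 06), RMH18 (07 and 08) and RMH35 (09 to 13), whose meaning is not given in the labels. Tumours that share a tag may come from the same animal or litter and would then not be independent. Tumours 05, 06 and 07 stood apart by their reads from RNAs without a poly(A) tail, mainly Rpph1 and Rmrp, which summed to 48.5 to 87.3 CPM against 1.65 to 6.77 CPM in the other 7. Of the 6 hepatocyte markers, Alb and Hnf4a were present in all 10 tumours, at 13079 to 23070 CPM and 617 to 901 CPM. They had the smallest SDs of log2 CPM in that list (0.26 and 0.18). The other markers differed more between tumours. Apoa1 ranged from 3367 to 10646 CPM, Ttr from 1725 to 4658 CPM and Glul from 5437 to 14926 CPM. Cps1 ranged from 4.55 CPM in tumour 05 to 219 CPM in tumour 12.

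The replication genes were lowest in tumours 04 to 06 and highest in tumours 08, 12 and 13. The replication score, the mean log2 CPM of the 43 genes, was 2.90, 2.82, 3.03, 3.16, 3.66, 3.53, 3.26, 3.26, 3.74 and 3.72 in tumours 04 to 13 in that order. Tumour 12 was thus 0.92 above tumour 05 on the log2 scale, a 1.89-fold difference, and the SD between tumours was 0.34. Most single genes followed the score, but it is their own mean, so the counts below only describe it. The shares of all genes with the same patterns were not counted. Of the 43 genes, 34 had their highest level in tumour 08, 12 or 13 and 26 had their lowest in tumour 04 or 05. In tumour 13, 40 of the 43 genes lay above their median over the tumours, and in tumour 04 it was 5. Tumours 12 and 13 were also the deepest libraries, and the range of the score was 0.92 after all libraries were thinned to the depth of tumour 07. The score had an r of 0.69 and a rho of 0.64 to the log2 total of gene counts over the 10 tumours, an r of 0.33 without tumours 12 and 13, and an r of 0.71 among the 7 tumours poor in RNAs without a poly(A) tail. The part of depth in the order of the tumours was not tested beyond the thinning. Among tumours 05 to 07, which were rich in RNAs without a poly(A) tail, the score was 2.82 to 3.16, and among the other 7 it was 2.90 to 3.74. The log2 sum of these RNAs had an r of -0.73 and a rho of -0.76 to the score over the 10 tumours, an r of -0.67 without tumours 12 and 13, and an r of -0.75 among the other 7, in which tumour 04 had both the highest sum (6.77 CPM) and the lowest score. Their part in the score was not tested.

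**Figure D1:**
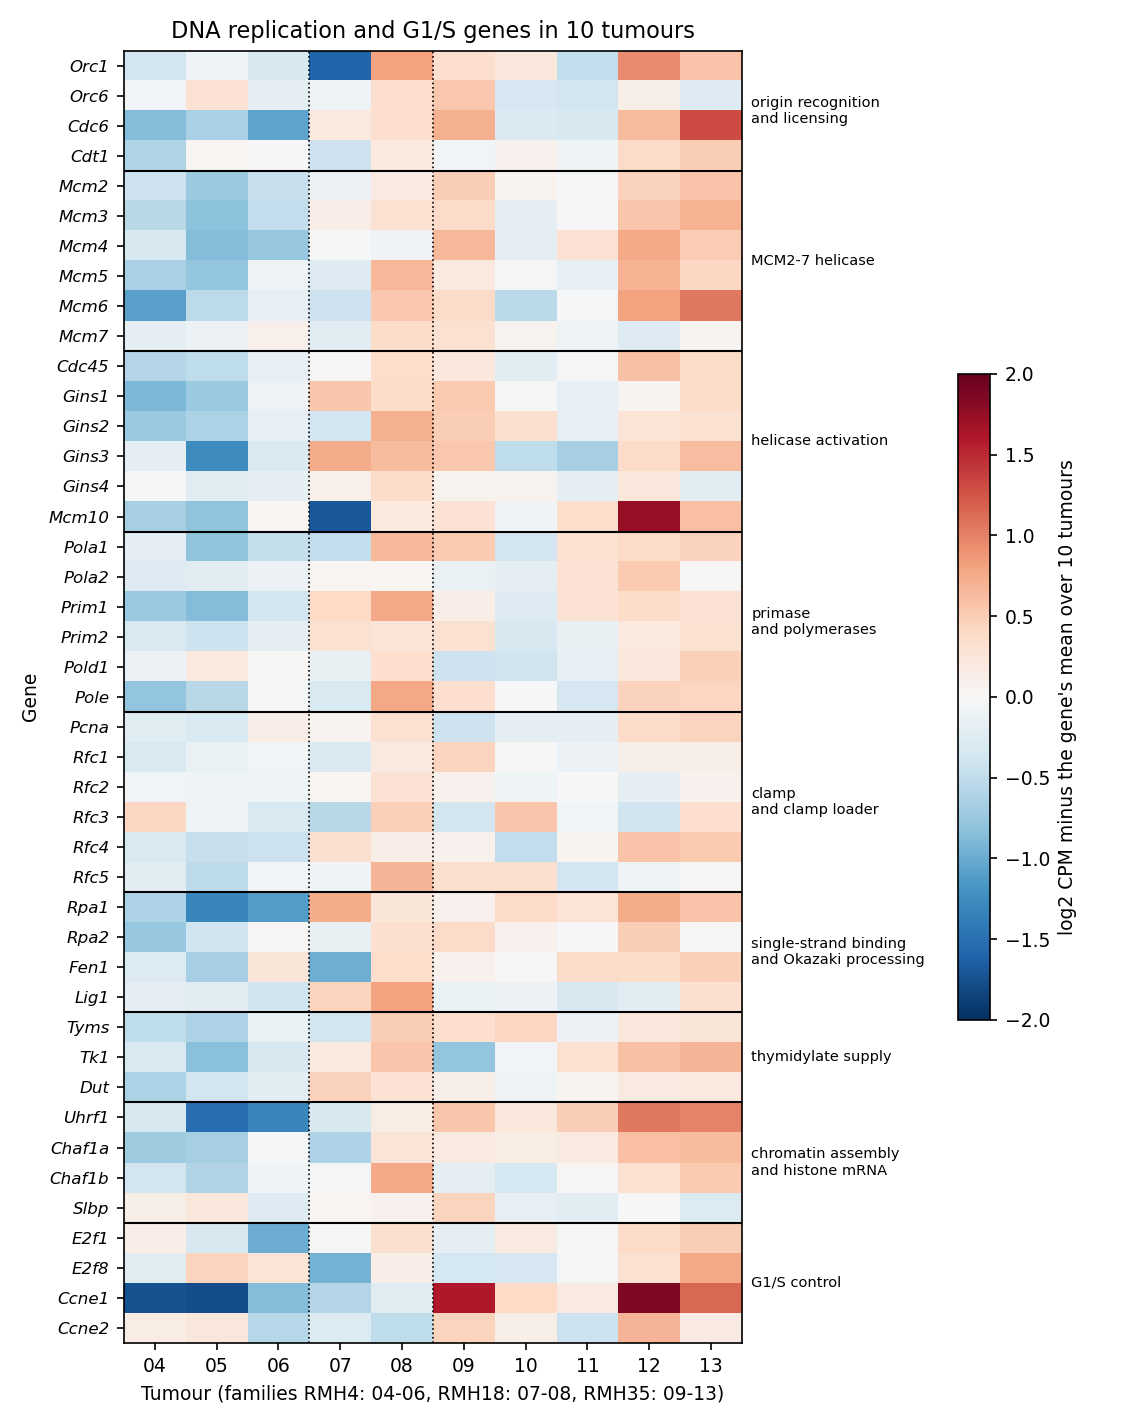
Each row is 1 of the 43 genes, grouped by role, and each column a tumour. The colour gives log2 CPM minus the mean of that gene over the 10 tumours, and most rows are blue in tumours 04 to 06 and red in tumours 08, 12 and 13, while Mcm7, Rfc2, Rfc3, Orc6 and Slbp do not follow that order.

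The genes differed from each other in their spread between tumours. The SD of log2 CPM had a median of 0.43 over the 43 genes, and it ranged from 0.13 (Rfc2) to 1.29 (Ccne1). Of the 43 genes, 39 passed the filter on low counts, and their median SD was 0.42 beside 0.33 over all 12462 genes that passed. The highest tumour was at least 2-fold above the lowest for 29 of these 39 genes (74.4%), and for 54.7% of all genes that passed. Orc1, Cdc6, Gins3 and Fen1 did not pass. The 10 genes with less than a 2-fold range were Orc6, Mcm7, Gins4, Pola2, Prim2, Pold1, Pcna, Rfc1, Rfc2 and Slbp.

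Among the licensing genes, Cdt1 was the most abundant, Cdc6 was low and Orc1 was close to the limit of detection. Cdt1, which brings the MCM ring to the origin complex, ranged from 12.7 CPM in tumour 04 to 27.2 CPM in tumour 13, with a median of 19.6 CPM. Cdc6, the ATPase that acts with it, ranged from 0.61 to 3.52 CPM with a median of 1.34 CPM. Its 3 lowest values were those of tumours 04, 05 and 06 (0.71, 0.83 and 0.61 CPM) and its highest that of tumour 13. Orc1, the largest subunit of the origin recognition complex, had a median of 0.51 CPM and only 1 read in tumour 07, which is under the floor of that library. Orc6, the smallest subunit, went its own way. It measured 6.84, 8.72, 6.28, 6.77, 9.03, 10.4, 5.66, 5.51, 7.76 and 5.93 CPM in tumours 04 to 13. The highest value was in tumour 09 and the lowest in tumour 11, and the RMH4 tumours lay within the range of the others. Orc6 overlaps Vps35 on the opposite strand, and both were correlated over the tumours (r = 0.74). Whether reads were counted by strand is not known, so the Orc6 value is uncertain.

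The MCM genes, which encode the 6 subunits of the replicative helicase, showed a shared order of tumours in all but Mcm7. Mcm2 measured 20.7, 16.5, 20.0, 25.4, 31.0, 39.1, 29.2, 27.2, 38.3 and 41.1 CPM in tumours 04 to 13. All 3 RMH4 tumours were below the other 7, and the highest tumour was 2.50-fold above the lowest. Mcm3 measured 13.4, 11.2, 14.0, 21.6, 24.4, 25.7, 17.1, 19.6, 28.9 and 32.0 CPM, with the same gap between tumours 04 to 06 and the rest. Mcm5 measured 13.4, 12.2, 19.6, 17.5, 33.4, 23.9, 20.5, 18.8, 34.1 and 27.8 CPM. Here tumours 04 and 05 were lowest, tumours 08 and 12 were highest, and tumour 06 overlapped the others. Mcm4 ranged from 6.28 to 19.4 CPM. Mcm6 had the widest range of the 6 genes, from 12.8 CPM in tumour 04 to 57.1 CPM in tumour 13. Pairs among Mcm2 to Mcm6 had a median r of 0.86 over the 10 tumours (10 pairs, lowest 0.68).

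Mcm7 did not share this order. It measured 31.3, 33.0, 38.6, 30.8, 46.4, 44.4, 37.5, 33.5, 29.9 and 37.4 CPM in tumours 04 to 13, a 1.56-fold range. Its lowest value was in tumour 12, which had the highest replication score, and its r with Mcm2 to Mcm6 was 0.05 to 0.43. Mcm7 (chromosome 5, 138162844 to 138170684, GRCm39) overlaps Cops6 and Ap4m1 on the other strand. Cops6 had a median of 125 CPM, above the 35.5 CPM of Mcm7, and an r of 0.19 with it. What part of the Mcm7 count came from Cops6 reads was not tested.

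Promoters are shown because replication genes are known E2F targets. Of the genes given in every tumour by the naming rule, 5 held an E2F match, and the 4 with the highest r to the other members, Mcm5, Mcm3, Uhrf1 and Mcm7, are printed, which leaves out Rfc3. RefSeq promoters, 250 bases before to 50 bases after the gene start on GRCm38.p6, were matched by symbol for 35 of the 43 genes. They were searched on both strands for 4 versions of the E2F site, TTTCCCGC, TTTCGCGC, TTTGCCGC and TTTGGCGC. Of the 35 genes, 13 (37.1%) held a match, beside 2.60% of all 27025 genes with a promoter, 34.3% of 35 other replication genes, 34.8% of 23 G1/S regulators and 4.17% of 24 G2 and mitosis genes. The score of the G1/S regulators did not follow the replication score. Another E2F version or a site outside the window would be missed. The genes with a match differed in likeness to the others, from Mcm5 (r = 0.95) to Rfc3 (r = 0.03), while Cdc45 and Slbp, with the highest and the lowest r, held none. Capitals mark the matches, and each sequence reads 5′ to 3′ on the strand of the gene. For Mcm5 (chr8:75109259-75109508, + strand), Uhrf1 (chr17:56304063-56304312, + strand) and Mcm7 (chr5:138171884-138172133, - strand) the 250 bases before the start are given. For Mcm3 (chr1:20820267-20820293, - strand) both matches lay after the start, and only the 27 bases that span them are given.
Mcm5: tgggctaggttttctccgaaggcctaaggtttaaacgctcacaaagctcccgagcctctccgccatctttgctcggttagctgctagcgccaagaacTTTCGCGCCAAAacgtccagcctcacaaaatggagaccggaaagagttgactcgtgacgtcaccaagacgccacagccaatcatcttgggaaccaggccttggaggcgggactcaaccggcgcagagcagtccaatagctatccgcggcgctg
Mcm3: GCGGGAAAacttgggaagtTTTGGCGC
Uhrf1: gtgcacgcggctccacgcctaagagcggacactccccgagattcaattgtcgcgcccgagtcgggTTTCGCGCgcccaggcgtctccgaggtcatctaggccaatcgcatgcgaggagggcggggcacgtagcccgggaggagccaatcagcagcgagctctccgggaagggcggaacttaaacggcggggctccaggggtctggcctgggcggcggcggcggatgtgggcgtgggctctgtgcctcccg
Mcm7: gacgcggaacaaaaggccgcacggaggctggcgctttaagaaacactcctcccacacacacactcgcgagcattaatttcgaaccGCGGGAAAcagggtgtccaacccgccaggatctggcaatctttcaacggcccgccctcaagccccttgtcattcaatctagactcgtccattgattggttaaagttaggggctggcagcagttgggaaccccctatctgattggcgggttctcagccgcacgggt
In Mcm5 a forward and a reverse match overlap and form 1 run of capitals. Mcm7 has another match at position 17 after its start that is not printed. Mcm7 and Uhrf1 each have a second promoter in the table, which holds no match and is not printed. A match is a run of letters and was not measured as a bound site here. The part of E2F sites in the order of the tumours was not tested.

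Of the genes that activate the helicase, Mcm10 differed most between tumours. Mcm10 (chromosome 2, 4994516 to 5017629, GRCm39), which binds the loaded helicase and is needed to start unwinding, measured 19.4, 17.6, 31.7, 9.46, 35.3, 37.9, 29.4, 39.5, 103 and 46.7 CPM in tumours 04 to 13. Tumour 12 stood far above the rest and tumour 07 far below, a 10.9-fold range. Cdc45, which travels with the helicase, measured 2.61, 2.76, 3.54, 3.90, 5.10, 4.59, 3.41, 3.86, 6.01 and 5.21 CPM. It had the highest r of the 43 genes to the mean of the other 42 (0.96). The 4 GINS genes encode the subunits of 1 complex, and they differed in spread. Gins4 measured 23.6, 21.1, 21.3, 26.2, 31.5, 25.5, 25.4, 21.4, 28.4 and 20.9 CPM, a range of 1.51-fold. Gins1 ranged from 2.68 to 7.51 CPM, Gins2 from 4.09 to 11.5 CPM and Gins3 from 0.38 to 1.86 CPM. For Gins1 and Gins3 the highest tumour was 07, in which Mcm10 was lowest.

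The primase and polymerase genes kept the general order in part, and Pold1 was the farthest from it. Prim1, the catalytic subunit of primase, ranged from 5.06 CPM in tumour 05 to 15.7 CPM in tumour 08, with all RMH4 tumours (at most 7.20 CPM) below the others (at least 7.73 CPM). Prim2, its partner, ranged from 4.74 to 7.98 CPM and was highest in tumour 07. Pola1, the catalytic subunit of polymerase α, ranged from 2.76 to 7.81 CPM, and Pola2, its regulatory subunit, from 9.17 to 15.8 CPM. Pola2 had an r of 0.59 to the other members, and tumour 11 (13.4 CPM) was above tumours 08 and 13. The catalytic subunits of the extending polymerases differed from each other. Pole, for polymerase ε, lay between 6.14 CPM (tumour 04) and 18.3 CPM (tumour 08) and had an r of 0.90 to the other members. Pold1, for polymerase δ, ranged from 11.9 CPM in tumour 09 to 22.0 CPM in tumour 13, with an r of 0.32.

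The sliding clamp and its loader were the steadiest group. Pcna, the clamp, measured 11.1, 10.6, 14.4, 13.8, 16.2, 9.81, 11.4, 11.6, 17.2 and 18.0 CPM in tumours 04 to 13. Tumour 09, whose replication score was above that of 6 other tumours, had the lowest Pcna value. The pseudogene Pcna-ps2 had 7.89 to 19.3 CPM, as many reads as Pcna, so Pcna is uncertain where reads could be placed in either. Rfc2 measured 43.2, 42.2, 42.3, 46.3, 54.98, 47.4, 42.2, 44.4, 39.7 and 47.6 CPM, the smallest SD of the 43 genes. All tumours but tumour 08 lay within 39.7 and 47.6 CPM. Rfc3 measured 21.1, 14.8, 12.8, 10.7, 21.9, 12.2, 23.4, 15.1, 12.0 and 19.9 CPM. Its high tumours were 04, 08, 10 and 13, which include 1 tumour with a low replication score, and its r to the other members was 0.03. The other loader genes ranged from 27.4 to 46.2 CPM (Rfc1), from 4.99 to 10.6 CPM (Rfc4) and from 7.56 to 17.6 CPM (Rfc5). Although their products form 1 complex, the 10 pairs of RFC genes had a median r of 0.31, with -0.29 for the lowest.

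Rpa1, the large subunit of the protein that coats single-stranded DNA, separated the RMH4 tumours from the others. Rpa1 (chromosome 11, 75188992 to 75239455, GRCm39) measured 73.3, 45.5, 52.1, 189, 133, 119, 146, 136, 189 and 168 CPM in tumours 04 to 13. Its highest RMH4 tumour lay below the lowest of the other 7 (119 CPM), with a mean of 57.0 ± 14.5 CPM (SD, n = 3) in RMH4. Tumour 07, which shares the excess of RNAs without a poly(A) tail with tumours 05 and 06, was at the top. Rpa1 overlaps Smyd4 (6.09 to 15.6 CPM, r = 0.69) on the opposite strand, so its value is uncertain as well. Rpa2, the middle subunit, ranged from 7.76 CPM in tumour 04 to 18.6 CPM in tumour 12 without such a gap. Lig1, the ligase that seals Okazaki fragments, was highest in tumours 08 (37.3 CPM) and 07 (29.0 CPM), the RMH18 family, and 16.2 to 26.6 CPM in the other 8. Fen1, the nuclease that trims their flaps, had a median of 1.56 CPM and 7 reads at the least. It overlaps Tmem258 (median 47.5 CPM), so its count is uncertain.

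Genes that supply thymidylate or package new DNA followed the general order in part, and Slbp was the farthest from it. Dut, which removes dUTP, ranged from 11.6 to 24.9 CPM and was highest in tumour 07, above tumours 08, 12 and 13. Tyms, the thymidylate synthase, ranged from 7.95 to 17.2 CPM, and Tk1, the thymidine kinase of S phase, from 5.26 to 15.2 CPM. Tk1 was low in tumour 09 (5.42 CPM) while the score of that tumour was not. Tk1 overlaps Syngr2 and Afmid on the opposite strand, and its r with them was 0.83 and 0.86, so its value is uncertain. Uhrf1 (chromosome 17, 56610275 to 56630489, GRCm39), which recruits the maintenance methyltransferase to new DNA, measured 5.29, 2.24, 2.62, 5.29, 7.33, 9.81, 7.78, 9.38, 13.8 and 13.2 CPM in tumours 04 to 13. Tumours 04 to 07 were its 4 lowest and tumours 12 and 13 its highest, a 6.15-fold range. Chaf1a and Chaf1b, subunits of the CAF-1 histone chaperone, ranged from 5.15 to 13.1 CPM and from 3.40 to 8.88 CPM. Slbp, which binds the stem-loop of histone mRNA, measured 8.89, 9.62, 6.89, 8.44, 8.69, 11.3, 7.30, 7.03, 8.26 and 6.80 CPM. It was lowest in tumour 13 and had the lowest r to the other members (-0.09).

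Of the 4 genes of G1/S control, Ccne1 had the widest range of all 43 genes and E2f1 a moderate one. Ccne1 (cyclin E1, chromosome 7, 37797404 to 37808264, GRCm39) measured 0.99, 0.96, 1.89, 2.32, 2.96, 11.0, 4.70, 3.99, 13.1 and 7.93 CPM in tumours 04 to 13. The families did not overlap, with RMH4 lowest, RMH18 between and RMH35 highest, and tumour 12 was 13.7-fold above tumour 05. RMH4 lay below all other tumours for 2.8% of all genes, and the share with this order of 3 families was not counted. Ccne2 (cyclin E2) measured 1.27, 1.35, 0.73, 0.93, 0.78, 1.59, 1.25, 0.82, 1.88 and 1.28 CPM and showed no such order. E2f1, an activating E2F, measured 9.24, 6.73, 4.21, 8.53, 10.5, 7.46, 9.60, 8.30, 11.0 and 11.9 CPM. Tumour 06 was lowest and tumour 13 highest, and the SD of log2 CPM of 0.43 was 0.26 without tumour 06. Tumour 04, low for most replication genes, was above the median for E2f1. E2f8, a repressing E2F, ranged from 10.9 CPM in tumour 07 to 36.0 CPM in tumour 13. Over the 10 tumours E2f1 had an r of 0.60 and E2f8 of 0.22 to the mean of the other members. Ccne1 overlaps 1600014C10Rik (108 to 284 CPM) on the opposite strand, and its r with that gene was -0.14.

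**Figure D2:**
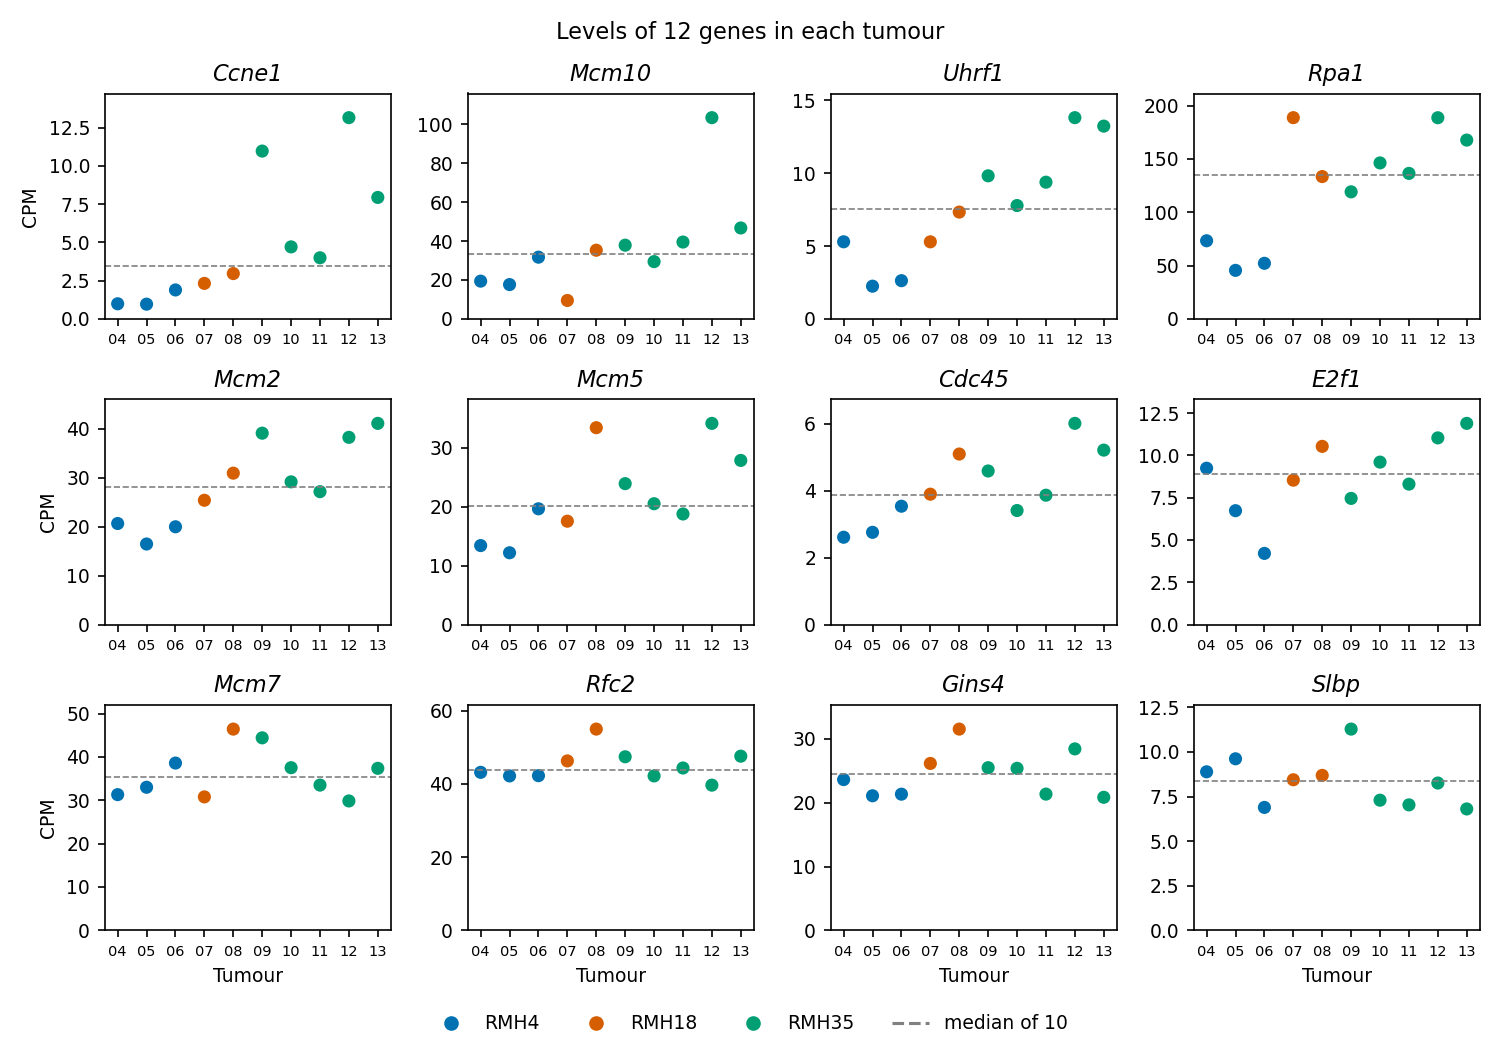
CPM (vertical axes, each from 0) of 12 genes in tumours 04 to 13, with 1 point per tumour coloured by tag family and the median of the 10 tumours as a dashed line. Ccne1 and Rpa1 are lowest in the 3 RMH4 tumours, Uhrf1 is lowest in tumours 05 and 06, Mcm10 peaks in tumour 12 at 103 CPM, and Mcm7, Rfc2, Gins4 and Slbp stay within less than 2-fold.

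Levels between genes were compared per length, as RPKM (CPM per 1000 bases of exon, with the exon length of the GRCm39 annotation). Rpa1 was the most abundant, with a median of 17.1 RPKM over the tumours, and Dut (6.74), Mcm7 (6.32), Rfc2 (6.22) and Cdt1 (6.07) followed without gaps wider than their spread between tumours. Orc1 was the least abundant with 0.09 RPKM, below Ccne2 (0.22) and Cdc6 (0.24). Genes whose products sit in 1 complex differed in level. Mcm7 was 3.02-fold above Mcm4 by their medians (6.32 against 2.09 RPKM), and Gins4 was 13.2-fold above Gins3 (4.89 against 0.37 RPKM). Prim1 exceeded Pola1 5.09-fold (1.89 against 0.37 RPKM), while Chaf1a and Chaf1b were close (1.04 and 0.99 RPKM). In all, 15 of the 43 genes overlap a protein-coding gene on the opposite strand, among them Rfc4, Rfc5, Chaf1a, Cdc45 and Gins2, so reads of those genes may enter these levels.

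**Figure D3:**
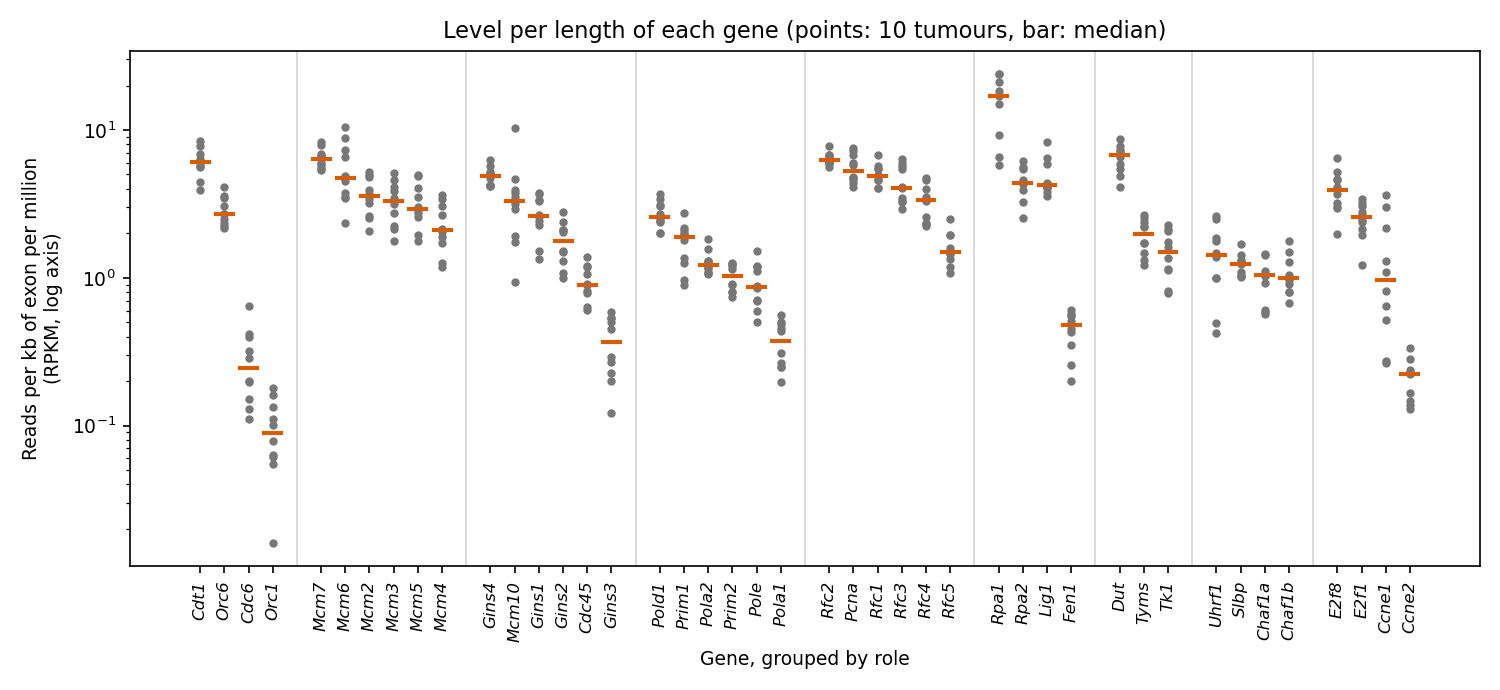
RPKM on a log axis for the 43 genes, in role groups divided by vertical lines and ordered by median within each. Points are the 10 tumours and bars their median, with Rpa1 at the top (17.1 RPKM) and Orc1 at the bottom (0.09 RPKM).

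The likeness of each gene to the rest was described by Pearson's r between its log2 CPM and the mean of the other 42 genes over the 10 tumours, without a test. The median r was 0.70. Of the 43 genes, 17 had an r of at least 0.8, led by Cdc45 (0.96), Mcm5 (0.95), Mcm3 (0.95) and Mcm2 (0.94). Over the 12423 tested genes outside the 43, the median r to the replication score was -0.015. The share of those genes at 0.8 or more was not counted. Slbp, Rfc3, Orc6, E2f8 and Ccne2 were the 5 genes under 0.3. A wide spread did not go with likeness in every case, since Mcm10, with the second largest SD (0.92), had an r of 0.69.

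**Figure D4:**
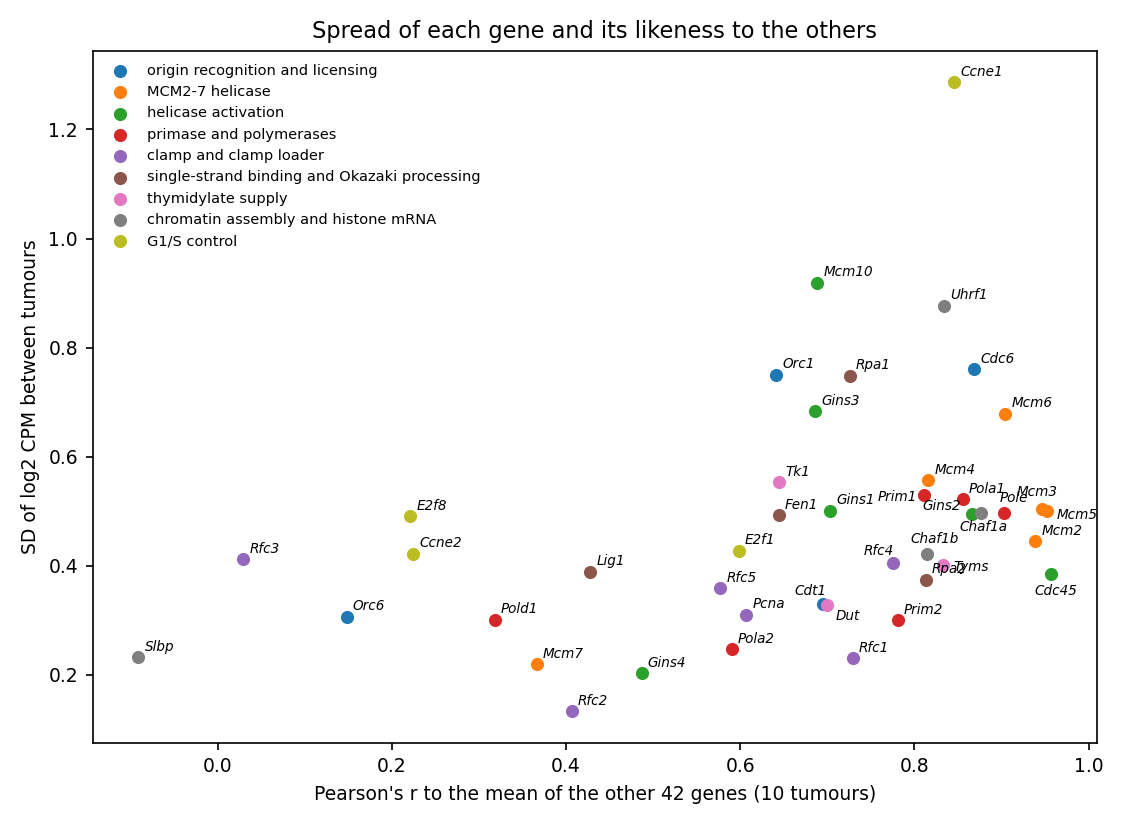
Pearson's r of each gene to the mean of the other 42 (horizontal axis) and SD of its log2 CPM between the 10 tumours (vertical axis), coloured by role. Ccne1, Mcm10 and Uhrf1 lie at the top, the helicase genes Mcm2, Mcm3 and Mcm5 with Cdc45 at the right, and Slbp (-0.09) and Rfc3 (0.03) at the left.

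Differences between the 3 tag families were tested for all 12462 genes with edgeR's quasi-likelihood F-test. No gene of the table was called at an adjusted p under 0.05 (0.0% of genes) and so no replication gene. At an unadjusted p under 0.05 there were 11 of the 39 tested replication genes (28.2%), beside 13.6% of all genes. The smallest adjusted p among them was 0.138, shared by Rpa1 and Ccne1. A likelihood ratio test in DESeq2 called 9 of the 39 genes, beside 4.08% of all genes, namely Ccne1, Rpa1, Uhrf1, Prim1, Mcm2, Mcm4, Lig1, Mcm3 and Dut. The call thus depended on the tool. Its adjusted p was 3.51e-05 for Ccne1 and 1.32e-05 for Rpa1. Without tumour 04 edgeR called Rpa1 and Uhrf1 of 41 replication genes tested, beside 0.717% of all genes (90 of 12557). Without tumour 09 it called Rpa1 of 41, beside 1.08% of all genes (136 of 12546), and in the other 8 omissions of 1 tumour it called none of the replication genes.

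The gap between RMH4 and the rest was then counted, after it had been seen in single genes. All 3 RMH4 tumours lay below all other tumours for 7 of the 39 tested genes, Mcm2, Mcm3, Mcm4, Prim1, Rpa1, Dut and Ccne1, and for 2.8% of all genes. They lay above all others for 0 of the 39 genes and for 2.63% of all genes. The score of the RMH4 tumours was 2.82 to 3.03, that of RMH18 was 3.16 and 3.66, and that of RMH35 was 3.26 to 3.74. Tumours 05 and 06 of RMH4 and tumour 07 of RMH18 also had the excess of RNAs without a poly(A) tail. These 3 lay below all others for Pola1 and Uhrf1 (2 of 39, beside 2.31% of all genes). For Uhrf1 this was almost a tie, with 5.2872 CPM in tumour 07 and 5.2898 CPM in tumour 04. Without tumours 05, 06 and 07, RMH4 and RMH18 were left with 1 tumour each. The spread then came from RMH35 alone, and the families could not be compared in a useful way. The families and the excess of these RNAs can only partly be told apart with these tumours.

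Other genes of the replication machinery followed the 43 as a mean but not gene by gene. Of 42 such genes 14 had an r of at least 0.7 to the replication score. The median r of the 42 was 0.53, beside -0.015 over the 12423 tested genes outside the 43. The list of 42 other replication genes, such as Rrm1, Dnmt1, Topbp1 and Hells, had a score of 2.86 to 3.49 with an r of 0.98 to the replication score (rho 0.95, n = 10) and of 0.98 without tumours 12 and 13, those farthest from the median. The same libraries give both scores, so depth and composition are shared. Of its 39 tested genes 0 were called between families by edgeR, 6 at an unadjusted p under 0.05, and DESeq2 called 2, Wdhd1 and Hells, beside 4.08% of all genes. These 6 are 15.4%, beside 13.6% of all genes. The highest tumour was at least 2-fold above the lowest for 19 of the 39 (48.7%), beside 54.7% of all genes. The largest SDs were those of Dtl, which targets Cdt1 for degradation (0.83 to 7.13 CPM), Hells, a chromatin remodeller (0.71 to 6.31 CPM), and Pole2, a subunit of polymerase ε (0.26 to 1.84 CPM). The lowest r to the score in this list was that of Pold4, a small subunit of polymerase δ (-0.74), and then that of Rnaseh2a, a subunit of the enzyme that cuts RNA out of DNA (-0.54).

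Regulators of the G1/S step did not, as a list, share the order of the replication genes. The score of 29 such genes was 3.38 to 3.92, highest in tumour 09, and its r to the replication score was 0.11 (rho -0.25, n = 10). Of 25 tested genes 0 were called between families by edgeR, 8 (32.0%, beside 13.6% of all genes) at an unadjusted p under 0.05, and 1 by DESeq2 (E2f2), beside 4.08% of all genes. The highest tumour was at least 2-fold above the lowest for 11 of them (44.0%, beside 54.7% of all genes). The largest SDs of log2 CPM were those of Ccnd2 (cyclin D2, 4.09 to 51.9 CPM, highest in tumour 09) and the kinase inhibitors Cdkn2b (0.25 to 3.51 CPM) and Cdkn1c (1.48 to 8.78 CPM). Within the list, Rbl1, E2f2, E2f6 and Skp2 had an r of at least 0.7 to the replication score. Cdkn1a, the inhibitor p21, had the lowest (-0.62), at 484 CPM in tumour 05, the tumour with the lowest score, and 61.2 CPM in tumour 12, that with the highest.

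The replication genes and the genes of G2 and mitosis separated in some tumours. The score of 28 G2 and mitosis genes was 3.32, 3.23, 3.90, 3.43, 4.58, 3.81, 3.77, 3.55, 3.82 and 4.15 in tumours 04 to 13. It had an r of 0.76 and a rho of 0.73 to the replication score (n = 10), an r of 0.81 without tumours 12 and 13, and an r of 0.77 among the 7 tumours poor in RNAs without a poly(A) tail. Tumour 08 was highest for mitosis and tumour 12 for replication. The mitosis score exceeded the replication score by 0.92 in tumour 08 and 0.87 in tumour 06, but by 0.08 in tumour 12. Among single genes, Ttk, Kif11 and Bub1 had an r above 0.9 to the replication score, while Cdc20 (0.38) and Cdk1 (0.39) were lowest. The largest SDs were those of Bub1 (2.31 to 8.42 CPM), Mki67, the gene of the Ki-67 antigen (28.2 to 101 CPM), and Nuf2 (3.21 to 12.0 CPM). Of the 28 genes 0 were called between families by edgeR, 1 (3.57%, beside 13.6% of all genes) at an unadjusted p under 0.05, and 0 by DESeq2. The highest tumour was at least 2-fold above the lowest for 27 of the 28 (96.4%, beside 54.7% of all genes).

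**Figure D5:**
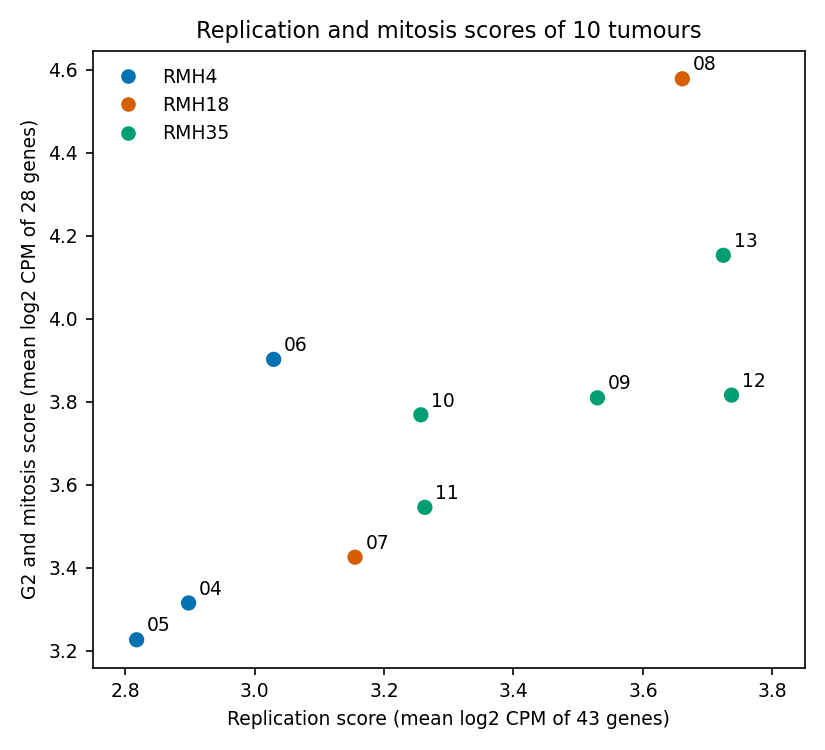
Replication score (horizontal axis, mean log2 CPM of 43 genes) and G2 and mitosis score (vertical axis, mean log2 CPM of 28 genes), 1 point per tumour coloured by tag family and labelled with its number. Tumours 04 and 05 are lowest on both axes, and tumours 08 and 12 are about as high in replication but 4.58 and 3.82 in mitosis.

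Ribosome biogenesis genes, which are known MYC targets, gave a different order of tumours. The score of 18 such genes was 5.73 in tumour 08 to 6.34 in tumour 06, with an r of -0.16 to the replication score (rho 0.15, n = 10) and of 0.39 among the 7 tumours poor in RNAs without a poly(A) tail, so the sign turned with the set. The largest SDs of log2 CPM were those of Nolc1 (64.4 to 154 CPM), Nop56 (44.2 to 95.1 CPM) and Wdr43 (42.1 to 85.3 CPM). Of the 18 genes 0 were called between families by edgeR, 1 (5.56%, beside 13.6% of all genes) at an unadjusted p under 0.05, and 0 by DESeq2. A 2-fold range was seen in 5 of them (27.8%, beside 54.7% of all genes). Mouse Myc (60.4 to 137 CPM) had an r of -0.16 to the replication score over 10 tumours and of 0.87 among the 7 tumours poor in RNAs without a poly(A) tail, and this sign turned as well. The human transgene was not counted separately. Ctnnb1 (256 to 543 CPM) had an r of -0.23 and, among those 7, of -0.40. Both were tested between families without a call by edgeR (0 of 2, 0 at an unadjusted p under 0.05) or DESeq2.

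Outside all lists, genes among those most like the replication score, of 12269 tested genes with a mean of at least 1 CPM, were Lrba (r = 0.96), Fignl1 (0.96), Cse1l (0.95) and Prkdc (0.94), each over 10 tumours. Fignl1, a recombination gene, ranged from 1.15 to 5.91 CPM, and Prkdc, the DNA-dependent protein kinase, from 6.47 to 19.7 CPM. They were picked for this r among all genes, so the values are a description.

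Markers of other cells differed between the tumours. The 5 endothelial markers summed to 78.4 to 314 CPM in tumours 04 to 09 and to 33.7 to 40.4 CPM in tumours 10 to 13, and their score had an r of -0.48 to the replication score. The 7 markers of stellate cells and fibroblasts summed to 232 to 1764 CPM (r = -0.28), the 8 of macrophages and neutrophils to 87.6 to 267 CPM (r = -0.09), and the 9 of leukocytes and lymphocytes to 3.74 to 19.1 CPM (r = 0.17). Of the defining lymphocyte markers, Cd3d, Cd3g and Ms4a1 had 0 reads in at least 1 tumour. Red blood cell markers summed to 101 to 6210 CPM, highest in tumour 07, and cholangiocyte markers to 13.7 to 146 CPM (r = -0.09 and -0.35). The hepatocyte score had an r of 0.48. The part of cell composition in the replication values was not tested.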

How the data were processed

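Polyadenylated RNA of whole liver tumours was sequenced from Trizol extracts with a stranded mRNA kit. The authors deposited raw read counts per gene in 1 table. The submitters' processing notes name TopHat2, HTSeq and GRCm38, and the table ends in htseq-count summary lines, while the study's methods name other programs, so the counting options and the use of strand are not known. Between 45.4% and 57.9% of a column were alignments that were not unique, which were given to no gene, which lowers genes with close copies. Summary lines were left out. Columns were matched to tumours by library number, an assumption, since no label says that a title carries its library number. Every value by tumour rests on this, and 9 columns were not used.

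Symbols, positions and exon lengths came from GENCODE M39 (GRCm39) by identifier, with 87.3% of identifiers matched, and promoters from RefSeq (GRCm38.p6). Counts were scaled with TMM in edgeR 4.0.16 (R 4.3.3), filtered with filterByExpr as 1 group, and put on the log2 CPM scale with a prior count of 2. Tag families were compared with edgeR's quasi-likelihood F-test and Benjamini-Hochberg adjustment over all genes, and with DESeq2 1.42.0. On simulated counts of 12462 genes, edgeR's test of the 3 families recovered 40 of 100 genes changed 2-fold and 81 of 100 changed 4-fold. The change was set in RMH35 alone, the largest family (5 tumours). Recovery of a change in RMH4 (3 tumours) or RMH18 (2 tumours) was not simulated. The labels do not say that the tumours came from separate animals. The p-values set differences between families against the spread within them. They would be too small if tumours that share a tag came from 1 animal.

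The members and gene lists were chosen with earlier results of these data known. Every member was named by role. Values in every tumour were given for the 3 genes with the largest and smallest SD, the 3 with the highest and lowest r to the other members, and E2f1, Ccne1, Ccne2, Pcna and Mcm2, and Rpa1 was added after its values were seen. In other lists the 3 genes with the largest SD were named, and those named there for their r were chosen after their values were seen. Outside the lists the 5 genes most correlated with the score were to be named, of which 1 is not reported here. At most 4 promoters with an E2F match were printed, taken in order of r from the genes given in every tumour by this rule. Alternatives were DESeq2 scaling, a prior count of 0.5, thinned counts, no filter, whole tags, and each tumour left out. Without tumours 05 to 07 was added after the data were seen. Other software was Python 3.11.15, pandas 2.3.3, scipy 1.17.1 and matplotlib 3.10.9.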

Additional observations from a re-analysis of the deposited data

How the results depend on the processing

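The count of replication genes called between tag families was 0 with edgeR, and it was 9 with the DESeq2 likelihood ratio test, where the cause of the difference was not tested. It ranged from 0 to 2 when each tumour was left out (2 of 90 genes called in all without tumour 04, and 1 of 136 without tumour 09), and was 0 with DESeq2 scaling (0 genes in all), without the filter (13 genes in all) and with the 5 whole tags (62 genes in all). The fit without tumours 05, 06 and 07 left 2 families with 1 tumour each, which are assumed to vary like RMH35, and says nothing on stability. Leaving out each tumour gave 26 to 29 genes with a 2-fold range, a median SD of 0.42 to 0.45 (0.45 without tumour 11, more than its jackknife error of 0.02 above the value over all tumours), a score range of 0.84 to 0.92 and an r between the replication and mitosis scores of 0.69 to 0.84. DESeq2 scaling and a prior count of 0.5 (all 4 values), thinned counts (all but r), medians over genes (score range and r) and the 39 genes that passed the filter (score range) gave 29 to 30 genes, a median SD of 0.43 to 0.45, a score range of 0.88 to 0.97 and an r of 0.76 to 0.78. Without tumours 05, 06 and 07 these were 25, 0.40, 0.84 and 0.77. Among 16 single genes, E2f1 had an SD of 0.26 without tumour 06, in place of 0.43. No paired analysis was possible because only tumours were analysed, so no group shared replicate numbers with another. Depth limits the genes near the floor, Orc1 above all. None of the 45 measures examined for a tumour far from the others passed Dixon's test. Some list scores still had wide gaps at the top. The G1/S regulator score was 3.92 in tumour 09 and 3.59 in the next tumour (07). The ribosome biogenesis score was 6.34 in tumour 06 and 6.00 in the next tumour (12).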
